A study of Mus musculus with 3 samples.

Results

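The collagen genes were followed on 3 arrays from CLDE cells. CLDE is an established line of mouse dental epithelium, taken from the cervical loop, the growing end of the incisor. A collagen gene was any gene whose name on the array was Col, a number, a and a number, which gave 44 of 37071 gene names and 91 of 56598 probes. By the type of chain the 44 genes fell into 11 fibrillar, 9 basement membrane, 6 type VI, 9 FACIT and 4 transmembrane collagens, with 5 others. FACIT stands for fibril-associated collagens with interrupted triple helices.

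Each array was from cells harvested 72 h after transfection. The groups were a mock transfection, a transfection with a non-targeting siRNA (siNeg) and one with an siRNA against Krt15 (siKrt15), with 1 array per group. All 3 groups were the same line in the same keratinocyte medium without serum, and no other allele or agent is named. For siNeg and siKrt15 the labels contradict each other: title and source name give one siRNA, while description and treatment give the other. Groups here follow the titles. The siRNA target Krt15, a type I keratin, had a processed signal of 2638.3 in mock, 1647.4 in siNeg and 267.2 in the array titled siKrt15, which goes with the titles.

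A collagen molecule is 3 chains wound into a triple helix, and each chain repeats a triplet of residues that begins with glycine. Fibrillar collagens form the fibrils of connective tissue, type IV forms the network of the basement membrane, and type VI forms beaded filaments beside it. Epithelial cells such as those of the tooth germ are known for basement membrane collagens, for type VII, which anchors that membrane to the tissue below, and for type XVII, which spans the cell membrane at the hemidesmosome. Type I, the main collagen of dentin and bone, is known from mesenchymal cells.

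Values are given in 2 ways. The processed signal is the scanner's brightness after background subtraction, in arbitrary units, and it is not scaled between arrays. A log2 difference is between signals scaled to each array's 75th percentile, which was 191.1 in mock, 180.4 in siNeg and 216.0 in siKrt15. The SD printed after a difference comes from the scanner's error model for 2 hybridisations. It leaves out the spread between cultures, which 1 array per group cannot give, so no difference here has a replicate check or a p-value. A difference was counted when it reached 2-fold, a log2 value of 1. The median over all genes was −0.13 in siKrt15 minus siNeg and −0.12 in siKrt15 minus mock, and scaling to the spike-in spots moved these to 0.20 and 0.04. A probe's signal also depends on its sequence, so signals are compared between arrays only, never between probes.

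On each array 67.3% to 69.2% of spots were well above background and 0 were saturated. The line carried its epithelial markers: all 8 of 8 listed, Krt5, Krt14 and Cdh1 among them, were measured on every array. Of 9 mesenchymal markers, 5 were measured, among them Dcn and Postn. Vim was well above background on the mock array alone, and Lum and Pdgfrb on none. Of the 5, 4 lay below 0 and Postn above 0 in siKrt15 minus siNeg, with a median of −0.58, and their summed signals were 353.7 in mock, 333.6 in siNeg and 310.9 in siKrt15. These sums are not scaled between arrays and weigh each gene by its probe's brightness. Dcn alone held 174.5, 150.5 and 85.8 of them, in the same order. Markers of osteoblasts or odontoblasts were measured for 4 of 6 genes, of chondrocytes for 2 of 4, of endothelium for 1 of 4 and of blood for 3 of 4, with Ibsp, Dmp1, Acan, Matn1, Cdh5, Kdr and Tek not well above background on any array. Whether cells of another type had a part in any collagen result was not tested, and in these bulk samples fewer cells of a type and less RNA per cell cannot be told apart.

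Sequences are shown for 3 members. These are Col5a3, whose probes did not go the same way, Col6a3, whose helix probe was lower in siKrt15 than in siNeg, and Col6a1, the member with the largest difference. The probes that read the Col5a3 and Col6a3 helices are given with the glycine codons of the repeat (GGN) in capitals, 1 such codon in every 9 bases. The last 30 bases of the only Col6a1 probe are given with the AATAAA signal for polyadenylation in capitals, a mark of the 3′ end of a transcript.
Col5a3 helix probe: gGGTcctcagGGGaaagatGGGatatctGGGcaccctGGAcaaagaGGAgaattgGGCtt
Col6a3 helix probe: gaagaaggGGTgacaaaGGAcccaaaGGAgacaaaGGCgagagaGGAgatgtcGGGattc
Col6a1 probe end: ctatctctgctAATAAAggtttccattttt
The first holds 7 such codons and the second 6. Probe positions below are those of the scanner files on mm9. No gene models of that build were at hand, so exons and UTRs are not stated.

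Of the 44 genes, 34 (77.3%) were well above background on all 3 arrays, against 63.5% of all gene names. By probe the order turned: 46 of 91 collagen probes (50.5%) were, against 62.7% of all probes. Among the 34 genes were 10 of 11 fibrillar, 6 of 9 basement membrane, 4 of 6 type VI, 9 of 9 FACIT and 3 of 4 transmembrane collagens. Not well above background on any array were Col4a4, Col5a2, Col6a6, Col10a1 and Col28a1. Col5a2 encodes the partner chain of Col5a1, and Col10a1 the collagen of hypertrophic cartilage. Detection went with the kind of probe: of 20 collagen probes designed to Ensembl transcripts 2 were well above background on all 3 arrays, against 43 of 68 designed to RefSeq transcripts. Over the whole array those shares were 58.0% and 67.2%.

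**Figure D1:**
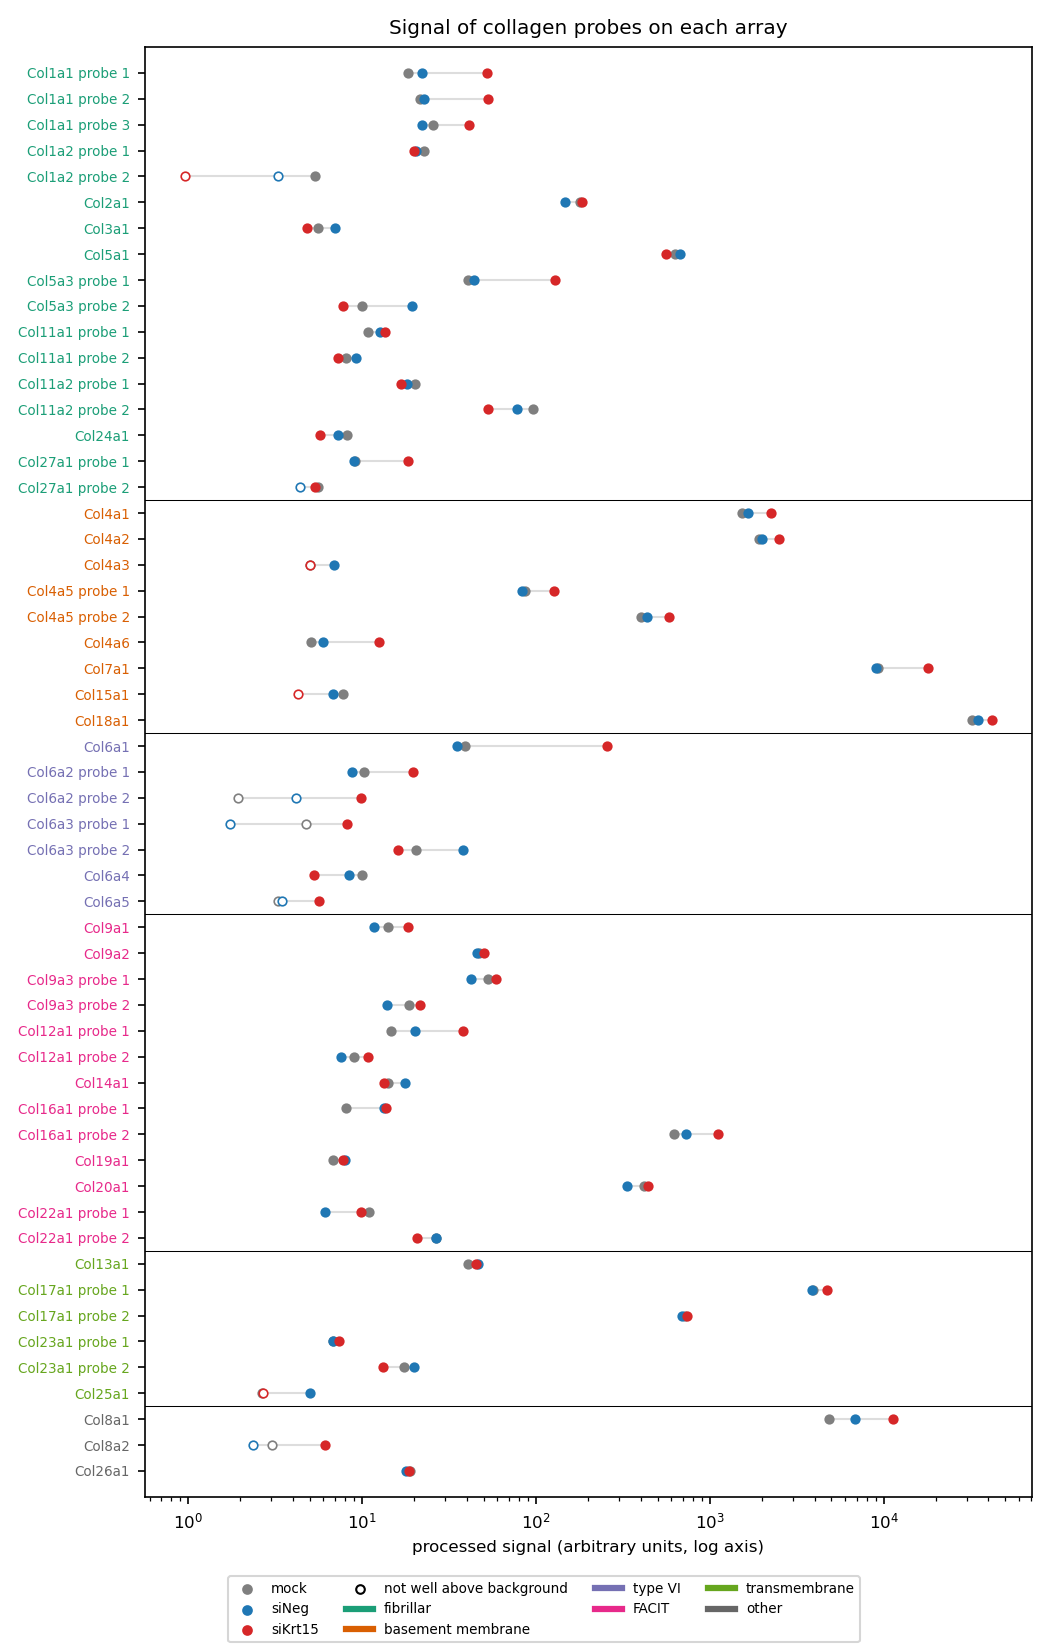
Processed signal (log axis, arbitrary units) of each collagen probe that was well above background on at least 1 array, in mock, siNeg and siKrt15; filled points are well above background, open points are not, and name colours give the collagen group. Each row is to be read across the 3 arrays only, since rows are different probes; Col6a1 stands at 39.0, 35.0 and 254.5.

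Between siKrt15 and siNeg, 34 collagen genes were measured on both arrays. Of these, 1 was at least 2-fold higher (Col6a1) and 1 at least 2-fold lower (Col6a3), where 1.35% of all genes measured were higher and 2.25% lower by that much (1.70% and 2.0% of those named in RefSeq). The collagen median was −0.03. Between siKrt15 and mock, 3 of 34 were at least 2-fold higher (Col6a1, Col4a6, Col8a1) and 1 lower (Col6a4), where the background was 1.68% higher and 2.08% lower (2.18% and 1.24% of genes named in RefSeq), and the median was −0.01. Between siNeg and mock, 0 of 35 were higher and 0 lower, where the background was 0.385% and 0.0943%. The 2 comparisons with siKrt15 share that array, so they are not independent of each other.

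Counts depended on the scaling. Against siNeg, spike-in scaling gave 6 higher and 1 lower, quantile normalization 4 and 1, removal of the signal trend 5 and 1, and the normexp background correction 1 and 0. Against mock, removal of the signal trend gave 5 higher and 0 lower, spike-in scaling and quantile normalization 4 and 0 each, and normexp 2 and 0. Normexp adds an offset of 50 to every signal, which by construction draws the log2 differences of dim probes toward 0. A normexp value near 0 at a dim probe therefore cannot tell a small difference from a larger one. Over the 8 scalings and background corrections, 13 of the 34 members stayed above 0 and 9 below 0 against siNeg, and 12 changed sign. The 8 include the scaling used here and the authors' value table, which is nearly the same scaling, so they are not 8 separate checks. Past 2-fold under all 8 were Col6a1 in both comparisons and Col8a1 against mock.

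**Figure D2:**
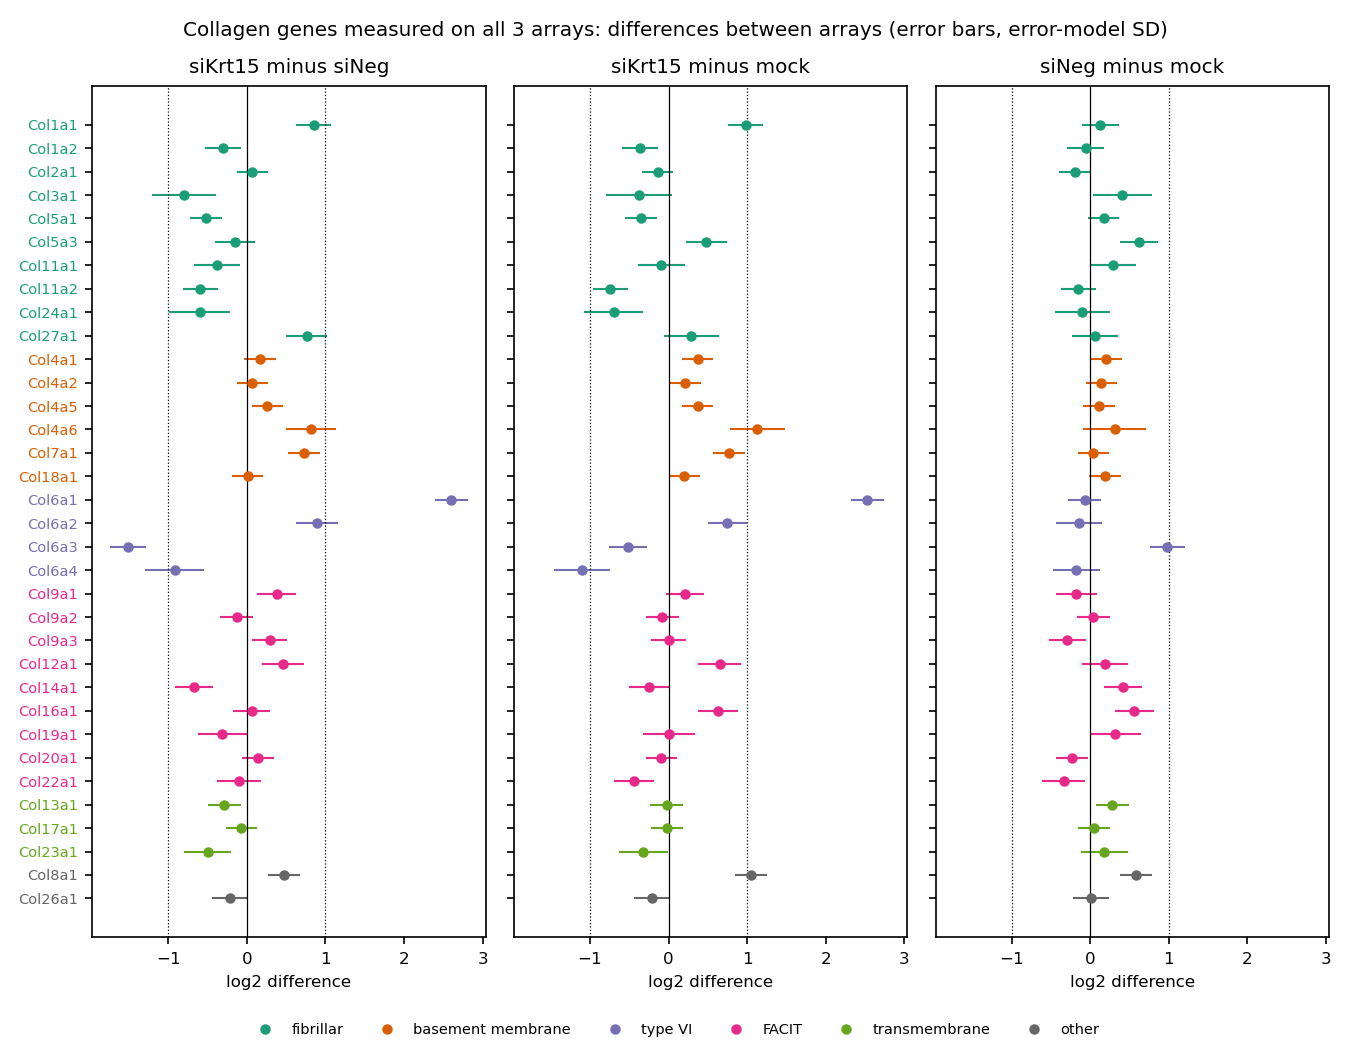
Log2 difference of each collagen gene measured on all 3 arrays, in 3 panels (siKrt15 minus siNeg, siKrt15 minus mock, siNeg minus mock), with error-model SD as bars and dotted lines at 2-fold; colours give the collagen group. Col6a1 lies at 2.60 and 2.53 in the siKrt15 panels, while the siNeg minus mock values run from −0.34 to 0.98.

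Type VI collagen is assembled from the chains of Col6a1, Col6a2 and one of Col6a3 to Col6a6. The Col6a1 probe (NM_009933, chromosome 10, 76171538 to 76171597 on mm9, minus strand) had a signal of 39.0 in mock, 35.0 in siNeg and 254.5 in siKrt15. The siKrt15 array was high and the control arrays lay close together. The log2 difference was 2.60 ± 0.21 against siNeg, or 6.07-fold, and 2.53 ± 0.21 against mock, or 5.77-fold. Between the controls it was −0.07 ± 0.21. Among all genes measured it was the 5th highest of 23853 against siNeg and the 7th highest of 23892 against mock. Over the 8 scalings it ranged from 1.62 to 2.93 against siNeg and from 1.64 to 2.69 against mock, lowest with normexp. Col6a1 had this 1 probe and no second one to set beside it.

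Col6a2 encodes the second obligate chain and lies next to Col6a1 on the same strand of chromosome 10 in the RefSeq table. Its probe to the RefSeq transcript (chromosome 10, 76058931 to 76058990) had a signal of 10.3 in mock, 8.8 in siNeg and 19.5 in siKrt15. The log2 difference was 0.89 ± 0.27 against siNeg and 0.75 ± 0.25 against mock, short of 2-fold. With normexp it was 0.03 against siNeg. A second Col6a2 probe was well above background in siKrt15 alone, at 9.8 against 1.9 in mock and 4.2 in siNeg. That is at least 1.83-fold higher than siNeg and at least 1.90-fold higher than mock. The probe to the RefSeq transcript stood highest on the array where Col6a1 did. The second passed the filter through that array alone, so its order there is not a separate reading. The third Col6a2 probe was well above background on no array, with 0.99 in mock, 2.76 in siNeg and 2.03 in siKrt15.

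Col6a3 encodes the long chain that completes the common trimer, and of its 3 probes only the helix probe was well above background on all 3 arrays. The helix probe (chromosome 1, 92689602 to 92690594, minus strand) had a signal of 20.5 in mock, 38.2 in siNeg and 16.1 in siKrt15. It is the siNeg array that stood apart there. The log2 difference was −1.51 ± 0.23 against siNeg, 2.84-fold lower, but −0.52 ± 0.24 against mock, and siNeg minus mock was 0.98 ± 0.22. A second Col6a3 probe (chromosome 1, 92663663 to 92663722) was well above background in siKrt15 alone, at 8.2 against 4.7 in mock and 1.7 in siNeg. That is at least 1.53-fold higher than either control, a bound that leaves out an error-model SD of 0.87 against siNeg and 0.40 against mock. This second probe passed the filter through the siKrt15 array alone, so its order there is not a separate reading. The third was well above background on no array (4.10, 3.75 and 3.68 in the same order, mock, siNeg, siKrt15). Averaging all 3 Col6a3 probes with no filter on dim ones turned the difference from siNeg to 0.06. With normexp it was −0.59.

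The alternatives to the Col6a3 chain were faint. Col6a4 had a signal of 10.1 in mock, 8.4 in siNeg and 5.3 in siKrt15. The log2 difference was −0.92 ± 0.38 against siNeg and −1.10 ± 0.36 against mock, 2.15-fold lower. That last value lay at −0.24 with normexp, and it passed 2-fold in 4 of the 8 scalings. Col6a5 was well above background in siKrt15 alone, at 5.6 against 3.3 in mock and 3.5 in siNeg, a bound of at least 1.05-fold over siNeg and 1.09-fold over mock. Col6a6 was measured on no array. The lowest signal called well above background was 4.56 in mock, 4.49 in siNeg and 4.51 in siKrt15, so these values stood close to the limit of measurement.

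Among the basement membrane collagens, 6 of 6 measured genes lay above 0 in siKrt15 minus siNeg and again in siKrt15 minus mock, where 34.3% and 36.4% of all genes did. Their medians were 0.21 and 0.37. Left out of that count are Col15a1 and Col4a3, not well above background in siKrt15 and lower there than in siNeg by at least 1.82-fold and at least 1.65-fold, and Col4a4, measured on no array. In siNeg minus mock the same group, then with Col15a1 measured too, had 6 of 7 above 0 and a median of 0.14, where 53.9% of all genes lay above 0. Against siNeg, 3 of the 6 differences (Col4a1, Col4a2 and Col18a1) were under 1 error-model SD. Under the 8 scalings the sign turned for 1 gene, Col4a6, which was −0.02 against siNeg with normexp.

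Col4a1 and Col4a2, the chains of the common type IV network, are neighbours read in opposite directions from adjoining starts. Col4a1 (chromosome 8, 11199009 to 11199068) had a signal of 1538.1 in mock, 1667.1 in siNeg and 2245.1 in siKrt15. After scaling the log2 difference was 0.17 ± 0.20 against siNeg and 0.37 ± 0.20 against mock, with 0.20 between the controls. Col4a2 had a signal of 1907.5 in mock, 1984.2 in siNeg and 2495.7 in siKrt15, which came to 0.07 and 0.21. The pair took the same order over the 3 arrays, and their differences from siNeg were smaller than the error-model SD of 0.20.

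Col4a5 and Col4a6, the chains of the epithelial type IV network on the X chromosome, also start head to head, 1342 bases apart. The Col4a5 probes had signals of 86.0 and 403.9 in mock, 82.9 and 434.2 in siNeg, and 126.9 and 582.9 in siKrt15. Their mean log2 difference was 0.26 ± 0.20 against siNeg and 0.37 ± 0.20 against mock. Col4a6 (chromosome X, 137599990 to 137600049) had a signal of 5.1 in mock, 5.9 in siNeg and 12.5 in siKrt15. Its log2 difference was 1.13 ± 0.35 against mock, 2.19-fold higher, and 0.82 ± 0.32 against siNeg. It passed 2-fold against mock in 7 of the 8 scalings and was 0.06 with normexp, whose offset of 50 is far above these signals. Both control signals of Col4a6 stood close to the lowest ones called well above background.

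Col7a1, the chain of the anchoring fibril, had a signal of 9291.8 in mock, 9045.2 in siNeg and 17968.5 in siKrt15 (chromosome 9, 108886855 to 108886914). The controls lay together, 0.04 apart on the log2 scale. The siKrt15 array was higher by 0.73 ± 0.20 against siNeg, 1.66-fold, and by 0.77 ± 0.20 against mock. It stayed between 0.73 and 1.05 against siNeg in the 8 scalings, past 2-fold in 1 of them. Col18a1, the source of endostatin, had a signal of 32064.4 in mock, 34649.3 in siNeg and 41719.5 in siKrt15, and log2 differences of 0.01 and 0.20. Once scaled, siKrt15 and siNeg were the same for Col18a1 to within the error model.

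The rest of the basement membrane group was at the edge of detection, and its bounds leave out the error of each reading. The error-model SD of the log2 difference from siNeg was 0.44 for Col15a1 and 0.42 for Col4a3. Col15a1, a relative of Col18a1, was read by a helix probe at 7.8 in mock, 6.8 in siNeg and 4.3 in siKrt15, where it was not well above background. That gives at least 1.82-fold lower than siNeg and at least 1.96-fold lower than mock. Col4a3, a chain of the kidney and lung network, was well above background in siNeg alone (6.9, against 5.0 on each of the others), at least 1.65-fold higher there than in siKrt15.

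The fibrillar collagens were near the background of all genes in direction. Of 10 measured, 7 were below 0 against siNeg and 7 below 0 against mock, where 65.7% and 63.6% of all genes were, with medians of −0.34 and −0.25 and no gene at 2-fold (0 higher, 0 lower). The 3 above 0 against siNeg were Col1a1, Col27a1 and Col2a1. Of the 7 below 0 against siNeg, Col1a2 and Col5a3 turned sign under other scalings. Dim genes as a whole were lower in siKrt15: of all genes with a mean signal under 20 the median was −0.31 against siNeg and 6.79% were at least 2-fold lower. The 14 collagens in that range had a median of −0.26. In the range of 1000 or more all genes had a median of −0.12, and the 6 collagens there had one of 0.12.

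Type I collagen is a trimer of the Col1a1 and Col1a2 chains. A pair of Col1a1 probes was spotted 10 times each, and their 20 shared bases make them overlapping readings of one stretch (chromosome 11, 94813075 to 94813174). At the first, after outlier spots were left out, the spots ran from 17.1 to 20.3 in mock (median 17.9), from 19.2 to 27.5 in siNeg (22.1) and from 47.2 to 57.7 in siKrt15 (52.2). At the second they ran from 18.9 to 26.9 in mock (21.4), from 17.6 to 26.2 in siNeg (24.0) and from 47.1 to 66.7 in siKrt15 (51.8). In these signals, not scaled between arrays, the siKrt15 spots overlapped with neither control at either probe. The share of other repeated probes without overlap is not given here, so this describes the Col1a1 probes only. Repeated spots show the error within 1 hybridisation, not between cultures.

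The third Col1a1 probe (chromosome 11, 94814188 to 94814247) had a signal of 25.7 in mock, 22.1 in siNeg and 41.0 in siKrt15. Over the 3 probes the log2 difference was 0.85 ± 0.22 against siNeg, 1.81-fold, and 0.98 ± 0.22 against mock, 1.98-fold. Single probes ran from 0.63 to 0.98 and from 0.50 to 1.34. With normexp the gene's difference was 0.22 against siNeg and 0.30 against mock, while it reached 1.18 against siNeg with spike-in scaling and 1.18 against mock with the signal trend removed. It was past 2-fold in 2 of the 8 scalings against siNeg and in 4 against mock. Col1a2 had a signal of 22.7 in mock, 20.5 in siNeg and 19.9 in siKrt15, and log2 differences of −0.30 ± 0.23 and −0.36 ± 0.23. So in the scaling used here the chains of type I collagen lay on opposite sides of 0, with Col1a1 short of 2-fold. Over the 8 scalings Col1a2 ran from −0.31 to 0.02 against siNeg, so its sign there was not stable. Against mock it ran from −0.39 to −0.14.

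**Figure D3:**
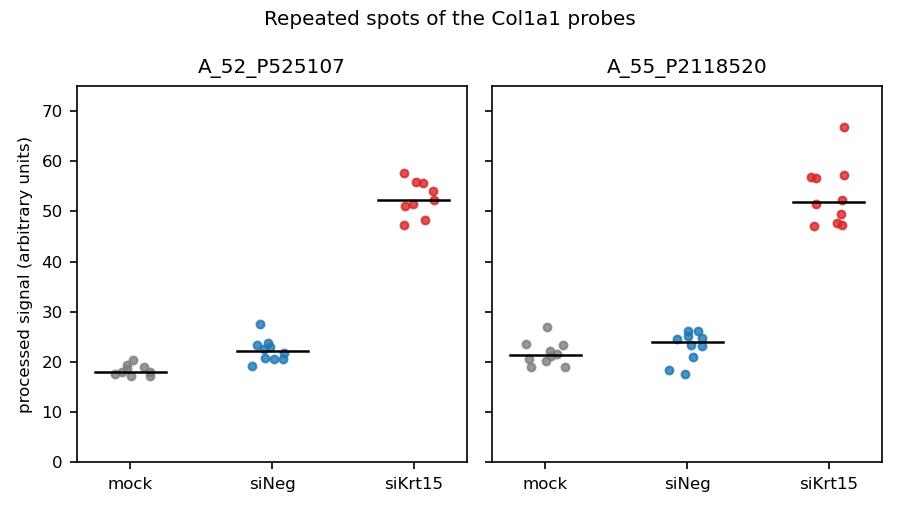
Processed signal of the repeated spots of the overlapping Col1a1 probes (1 panel each) on the mock, siNeg and siKrt15 arrays; points are spots, lines are medians. Signals are not scaled between arrays. The siKrt15 spots lie at 47.1 or above at both probes, and every control spot lies at 27.5 or below.

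The fibril-initiating and minor fibrillar chains were mixed. Col5a1 had a signal of 633.1 in mock, 670.7 in siNeg and 561.1 in siKrt15, with log2 differences of −0.52 ± 0.20 against siNeg and −0.35 ± 0.20 against mock. It stayed below 0 in all 8 scalings against siNeg, from −0.53 to −0.19. Col2a1, the cartilage collagen, had a signal of 178.6 in mock, 146.3 in siNeg and 183.4 in siKrt15, and differences of 0.07 and −0.14. Col3a1, the partner of type I in soft tissue, had signals of 5.6, 7.0 and 4.8 and a difference of −0.80 ± 0.41 against siNeg. Col11a2 was lower at both of its probes. The helix probe was at −0.38 ± 0.24 against siNeg, and the other, with 96.7 in mock, 77.6 in siNeg and 53.1 in siKrt15, was at −0.81 ± 0.21. The gene's differences were −0.59 ± 0.22 and −0.74 ± 0.22.

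Col5a3 gave opposite readings from its pair of probes. The helix probe (chromosome 9, 20590066 to 20590795, minus strand) had a signal of 9.96 in mock, 19.32 in siNeg and 7.79 in siKrt15. The other probe (chromosome 9, 20574592 to 20574651) had a signal of 40.5 in mock, 44.3 in siNeg and 128.4 in siKrt15. The first stood out on the siNeg array and the second on the siKrt15 array. The log2 differences from siNeg were −1.57 ± 0.29 at the helix probe and 1.28 ± 0.21 at the other, and those from mock −0.53 ± 0.30 and 1.49 ± 0.21. The mean over both, −0.15 against siNeg and 0.48 against mock, describes neither. Which of them follows the level of Col5a3 was not tested.

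The same pattern was looked for in every helix probe. A probe was called a helix probe by its letters alone. Its 60 bases had to hold at least 5 GGN codons spaced 3 codons apart in 1 frame without a stop. That frame was not checked against the coding frame. The array held 21 such probes, 6 of them in collagen genes: Col5a3, Col6a3, Col11a2, Col15a1, Col16a1 and Col22a1. The others lie in genes outside the collagen members, and whether they code for a helix was not checked. In siKrt15 minus siNeg, 0 of the 18 measured helix probes lay above 0, with a median of −0.35, where 13350 of 35979 probes of all kinds did. Only 5 of the 18 are in collagen genes, with a median of −0.62. The Col5a3 and Col6a3 probes, in which the pattern was seen, are among these 5 and so among the 18. Without them, 0 of 16 lay above 0, with a median of −0.32, and the other 3 collagen helix probes lay at −0.38 (Col11a2), −0.23 (Col16a1) and −0.62 (Col22a1). The 41 other collagen probes had a median of 0.14, with 25 above 0. In siKrt15 minus mock, 2 of 18 helix probes lay above 0. In siNeg minus mock 9 of 19 did, and 4 of the 6 in collagen genes, which had a median of 0.45, or 0.01 without Col5a3 and Col6a3. Helix probes had a median signal of 19.3, and those in collagen genes one of 14.4. Genes with a mean signal under 20 had the median of −0.31 against siNeg given above, and 24.6% of them lay above 0, a lower share than over all genes. Helix probes had a median GC content of 55.0%, against 41.7% for all probes. The part of signal and base composition in these values was not tested.

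The FACIT collagens, which coat fibrils, were measured in all 9 of 9, with 5 above 0 against siNeg (34.3% of all genes), a median of 0.06 and none at 2-fold (0 higher, 0 lower). Col16a1 was read at its 3′ probe as 619.2 in mock, 727.3 in siNeg and 1113.4 in siKrt15, differences of 0.35 ± 0.20 and 0.67 ± 0.20. Its helix probe had 8.1, 13.4 and 13.7 in the same order, a difference of −0.23 ± 0.26 against siNeg. The helix probe lay below the 3′ one against siNeg, the reverse of the order at Col11a2. Col12a1, a FACIT of dense connective tissue, had 14.60 in mock, 20.05 in siNeg and 38.01 in siKrt15 at one probe, and 9.0, 7.5 and 10.8 at the other. The gene's differences were 0.46 ± 0.27 and 0.65 ± 0.27. Col20a1 had a signal of 416.3 in mock, 334.9 in siNeg and 440.8 in siKrt15, and differences of 0.14 and −0.09.

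Type IX collagen, the FACIT of cartilage, was measured for each of its 3 chains. Against siNeg, Col9a1 differed by 0.38 ± 0.25, Col9a2 by −0.13 ± 0.21 and Col9a3 by 0.29 ± 0.22. Each of the 3 turned sign in another scaling. Col14a1 differed from siNeg by −0.67 ± 0.24 and from mock by −0.25 ± 0.25. The probes of Col22a1, a collagen of tissue junctions, disagreed: 0.42 ± 0.34 at the one that had signals of 11.03, 6.13 and 9.82, and −0.62 ± 0.22 at the helix probe, with 26.5, 26.6 and 20.7. Col19a1 differed from siNeg by −0.31 ± 0.31.

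Of the transmembrane collagens 3 were measured, and all 3 lay below 0 in both siKrt15 comparisons, as did 65.7% and 63.6% of all genes, 2 of them turning sign in other scalings (Col13a1 and Col17a1). Col17a1, the hemidesmosome collagen, had signals of 3893.2 and 719.6 in mock, 3885.1 and 689.5 in siNeg, and 4723.3 and 734.4 in siKrt15 at its pair of probes (chromosome 19, 47720894 to 47720953 and 47721454 to 47721513). The log2 difference was −0.07 ± 0.20 against siNeg and −0.02 ± 0.20 against mock. Its range over the 8 scalings was −0.08 to 0.25 against siNeg, so a 2-fold difference was not seen in any of them. Col23a1 differed from siNeg by −0.50 ± 0.30 and Col13a1 by −0.29 ± 0.21. Col25a1, the collagen found in amyloid plaques, was well above background in siNeg alone (5.0, against 2.7 on each of the others).

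Of the 5 other collagens, Col8a1 encodes a short network-forming chain. It had a signal of 4844.2 in mock, 6845.2 in siNeg and 11337.5 in siKrt15 (chromosome 16, 57627033 to 57627092). The 3 arrays stood apart from each other in that order. The log2 difference was 1.05 ± 0.20 against mock, 2.07-fold, 0.47 ± 0.20 against siNeg and 0.58 ± 0.20 between the controls. The step from mock to siNeg and the step from siNeg to siKrt15 were thus alike to within the error model. Its partner Col8a2 was well above background in siKrt15 alone, at 6.2 against 3.0 in mock and 2.4 in siNeg, at least 1.14-fold over siNeg. Col26a1 had a signal of 18.9 in mock, 18.0 in siNeg and 18.6 in siKrt15, and a difference of −0.21 in both siKrt15 comparisons.

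**Figure D4:**
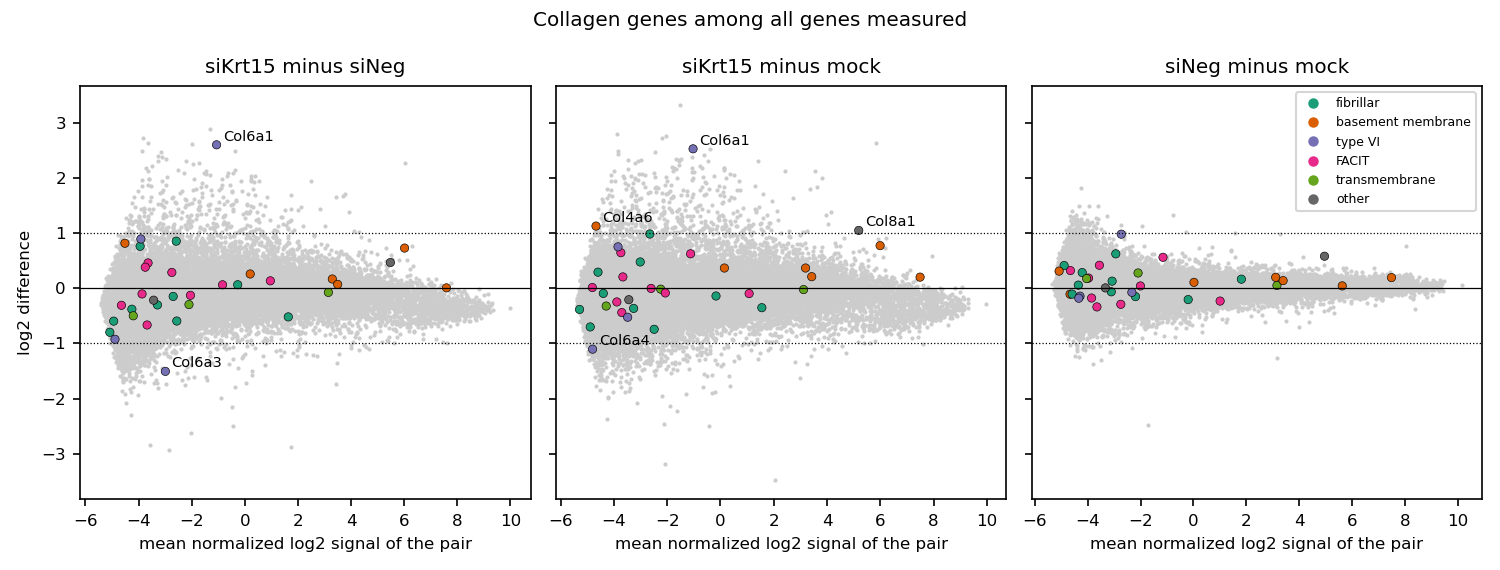
Log2 difference against the mean normalized log2 signal of the pair for all genes measured (grey) and collagen genes (coloured by group), in 3 panels; dotted lines mark 2-fold and members past it are named. Col6a1 stands out at 2.60 and 2.53 in the siKrt15 panels, and no member passes 2-fold in siNeg minus mock.

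The start regions of the 3 members at least 2-fold higher than mock are shown. Of these, only Col6a1 was also at least 2-fold higher than siNeg. Between the controls Col8a1 differed by 0.58 ± 0.20 and Col6a1 by −0.07 ± 0.21, so the members did not share a pattern over the arrays. The regions are the 250 bases before the start, from the RefSeq table of GRCm38.p6, each read 5′ to 3′ on its own strand. Capitals mark any of 7 motifs searched on both strands. The motif of AP-1, the Fos and Jun factors, was TGACTCA. That of the TEAD factors, which act with YAP, was GGAATG. The GC box, read by Sp factors, was GGGCGG. The CCAAT box was searched as named, and the TATA box as TATAAA. The motif of SMAD factors, which act downstream of TGF-beta, was GTCTAGAC. The E-box, read by Snail and Zeb factors, was CAGGTG.
Col6a1 (chr10:76726045-76726294, minus strand): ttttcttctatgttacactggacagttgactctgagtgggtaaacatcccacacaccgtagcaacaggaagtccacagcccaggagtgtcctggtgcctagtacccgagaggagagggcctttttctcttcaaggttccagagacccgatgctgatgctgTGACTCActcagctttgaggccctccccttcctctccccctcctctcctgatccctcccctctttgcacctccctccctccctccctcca
Col8a1 (chr16:57754738-57754987, minus strand): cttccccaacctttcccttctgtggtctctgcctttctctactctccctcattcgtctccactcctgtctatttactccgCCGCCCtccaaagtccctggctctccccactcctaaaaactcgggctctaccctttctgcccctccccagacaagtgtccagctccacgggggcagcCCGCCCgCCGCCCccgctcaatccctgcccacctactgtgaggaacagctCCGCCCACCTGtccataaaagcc
Col4a6 (chrX:141474077-141474326, minus strand): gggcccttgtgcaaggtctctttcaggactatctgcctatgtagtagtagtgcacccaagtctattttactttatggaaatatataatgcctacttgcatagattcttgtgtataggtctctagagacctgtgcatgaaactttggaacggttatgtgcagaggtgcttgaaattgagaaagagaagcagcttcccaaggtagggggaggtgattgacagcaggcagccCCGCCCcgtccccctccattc
Col6a1 held the AP-1 motif, which starts 90 bases before the start, and none of the other 6. Col8a1 held 4 GC boxes on the reverse strand and 1 E-box that shares 1 base with the last of them. Col4a6 held 1 GC box. The 3 windows shared no single motif. Windows were found for 35 of the 44 genes, 38 in all: AP-1 was in 1 of the 38, against 4.46% of 32851 windows of all genes, and the GC box in 22 (57.9%), against 32.7%. A match of letters is a description and says nothing of a factor's binding.

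The genes that make, process, bind or accompany collagens were taken from 6 lists with 89 genes, of which 74 were measured. Against siNeg, 4 were at least 2-fold higher (Pcolce, Loxl1, Fn1, Postn) and 1 lower (Dcn), where 1.35% of all genes were higher and 2.25% lower, and the median was 0.05. Against mock, 6 were higher (those 4, Comp and Fras1) and 2 lower (Dcn and Itga1), where the background was 1.68% and 2.08%. In siNeg minus mock 0 of 74 were higher and 0 lower, with a background of 0.385% and 0.0943%. The lists were chosen with earlier results of these data known, so their counts are a description.

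Folding and secretion of procollagen was read by 21 of 24 genes, 0 at 2-fold in either direction and 9 above 0 against siNeg (34.3% of all genes), with a median of −0.03. The largest values were those of Sec23a, a coat protein of the vesicles that carry procollagen (0.94 ± 0.28), of Fkbp10 and Fkbp14, prolyl isomerases of procollagen (0.67 each), and of Serpinh1, the collagen chaperone HSP47 (0.51 ± 0.22). Serpinh1 had a signal of 194.0 in mock, 213.0 in siNeg and 364.5 in siKrt15. The hydroxylases of the list, such as P4ha1 and Plod1, did not reach 2-fold.

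Of the processing and cross-linking list 11 of 15 were measured. Against siNeg 2 of them were higher by 2-fold or more and 0 lower (1.35% and 2.25% of all genes), and the list median was 0.05. Pcolce, which enhances cleavage of the procollagen C-propeptide, had a signal of 143.9 in mock, 144.5 in siNeg and 350.7 in siKrt15, a log2 difference of 1.02 ± 0.20. Loxl1, an enzyme of the lysyl oxidase family, had a signal of 5.8 in mock, 5.6 in siNeg and 21.1 in siKrt15, a difference of 1.65 ± 0.33. Both stood apart from a close pair of controls. The Loxl1 control signals, from 1 probe, lay close to the lowest ones called well above background. Pcolce2 differed by 0.56 ± 0.20 and Loxl2 by −0.56 ± 0.23. Lox, which cross-links fibrillar collagen, was not well above background on any array.

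Of the collagen receptors 12 of 14 were measured against siNeg, 0 at 2-fold in either direction, with a median of −0.09. Mrc2, an endocytic collagen receptor, differed by −0.91 ± 0.37, Itga11 by −0.63 ± 0.39, Ddr2 by 0.62 ± 0.24 and Itga1 by −0.50 ± 0.23. The Mrc2 and Ddr2 values each rest on 1 of 3 probes. Mrc2 was not well above background in mock, and Ddr2 differed from mock by 0.20 ± 0.33. Itga11 had signals of 5.1 in mock, 6.3 in siNeg and 4.8 in siKrt15, close to the limit of measurement, and differed from mock by −0.26 ± 0.42. Itga1, an integrin chain that binds type IV, was −1.06 ± 0.22 against mock, and both values rest on its 1 probe well above background in siKrt15. Ddr1, the collagen receptor kinase of epithelia, differed by 0.04 ± 0.20.

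Of the partners of fibrils 11 of 14 were measured against siNeg. There 2 were higher by 2-fold or more and 1 was lower (1.35% and 2.25% of all genes), and the list median was 0.19. Fn1, fibronectin, had a mean signal of 110.8 in mock, 134.3 in siNeg and 447.0 in siKrt15 over its probes, a log2 difference of 1.47 ± 0.21. Postn, a matrix protein that binds collagen, had 9.0 in mock, 10.5 in siNeg and 48.6 in siKrt15, a difference of 1.94 ± 0.25. Dcn, the fibril-binding proteoglycan decorin, went the other way at 174.5, 150.5 and 85.8, a difference of −1.07 ± 0.20. Comp differed by 0.66 ± 0.31 against siNeg and by 1.06 ± 0.35 against mock. Its signals were 5.2 in mock, 6.5 in siNeg and 12.2 in siKrt15, with the controls close to the limit of measurement.

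Of the basement membrane partners 10 of 13 were measured, 0 at 2-fold against siNeg in either direction, 8 above 0 (34.3% of all genes) and a median of 0.29. Fras1, a protein of the epithelial basement membrane, differed by 0.71 ± 0.25 against siNeg and 1.08 ± 0.27 against mock. Hspg2, perlecan, differed by 0.60 ± 0.21 and Lama5, a laminin chain, by −0.50 ± 0.20. Nid1 and Nid2, which join laminin to type IV, were not well above background on any array. The hemidesmosome partners were measured in 10 of 10, 0 at 2-fold in either direction, with a median of 0.03. Dst, which holds keratin filaments at the hemidesmosome, differed by −0.58 ± 0.21, and Itga6, a chain of its integrin, by 0.41 ± 0.21.

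**Figure D5:**
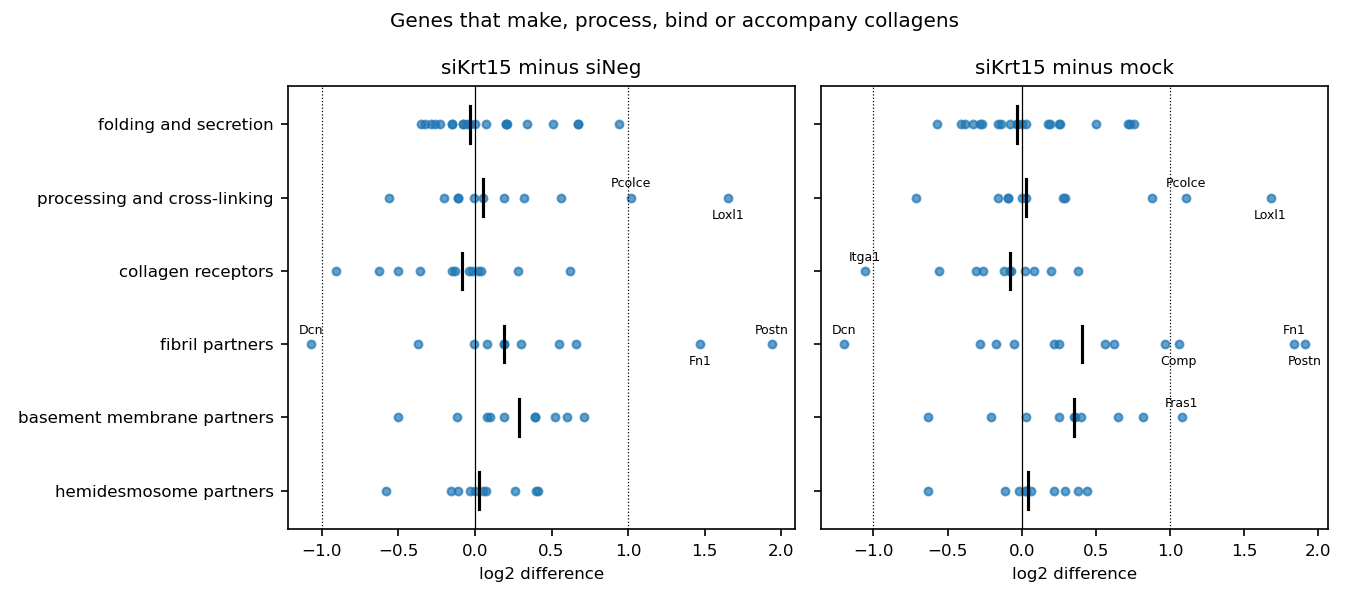
Log2 differences of the measured genes in the 6 lists of collagen-related genes, siKrt15 minus siNeg (left) and siKrt15 minus mock (right); points are genes, thick bars are list medians, dotted lines mark 2-fold and genes past it are named. Postn (1.94), Loxl1 (1.65), Fn1 (1.47), Pcolce (1.02) and Dcn (−1.07) are past 2-fold against siNeg.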

How the data were processed

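Per the labels' protocols, total RNA was amplified to Cy3-labelled cRNA and read on Agilent mouse arrays in 1 colour. Signals were extracted with Agilent Feature Extraction 11.5.1.1, per the submitters' processing notes. The authors deposited scanner files whose processed signal is a background-subtracted intensity, with probe positions on mm9 per the file headers. They also deposited a value table on a log2 scale, used as an alternative. Against the scanner files it is the log2 signal minus a constant near each array's 75th percentile, uncentred, with 92.4% to 94.0% of probes within 0.01 and column medians of −3.52 in mock, −3.51 in siNeg and −3.72 in siKrt15.

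Spots that were not controls and not outliers were averaged per probe on the log2 scale, and each array's 75th percentile was subtracted. The 3 arrays lie on 1 slide and were read in 1 scan. A probe was measured in a comparison when both arrays had it well above background and unsaturated, and a gene's difference is the mean over those probes. Where only 1 array was well above background, a bound ("at least N-fold") was taken from the brighter value to the dim array's value. If the lowest value called well above background there was larger, that was used instead. A bound leaves out the error of both readings. Named are Krt15, Col6a1, Col1a1, Col17a1 and Col4a1, members past 2-fold, the 2 probes of each group with the highest signal in mock (a choice of what to name, not a comparison of levels), members with opposing probes, and up to 4 members of each list. Other members are given by detection or as values. The members, lists and rules were chosen with earlier results of these data known. All 91 collagen probes kept their names in the RefSeq table (67 by accession, 24 by symbol). The procedure was run on simulated arrays with the same noise at every signal and the same background flags on every array. That run does not cover the error of dim probes, differences in detection or the spread between cultures. Python 3.11.15, pandas 2.3.3, numpy 2.4.6, R 4.3.3 and limma 3.58.1 (normexp, offset 50) were used. The number of arrays limits the precision.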

Additional observations from a re-analysis of the deposited data

How the results depend on the processing

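No paired analysis was possible because each group has 1 array. All values rest on 1 hybridisation per group, and dim probes limit 14 of the 34 members. Of the alternatives tried, the count of collagen genes at least 2-fold higher in siKrt15 than siNeg, 1 as reported, was 6 with spike-in scaling, 4 with quantile normalization, 5 with the signal trend removed, 2 with a stricter filter on dim probes, 2 with the brightest probe per gene and 6 at a threshold of 1.5-fold. The count lower, 1 as reported, was 0 with normexp, 2 with no filter on dim probes, 0 with the stricter filter and 6 at 1.5-fold. The collagen median was 0.29 with spike-in scaling, and the stricter filter, a processed signal of at least 20, left 20 members measured. Against mock, the count higher, 3 as reported, was 5 with the trend removed, 6 with the brightest probe and 8 at 1.5-fold. The count lower, 1 as reported, was 0 with normexp, spike-in scaling, quantile normalization and the trend removed, 2 with the brightest probe and 3 at 1.5-fold, and the stricter filter left 19 members. In siNeg minus mock, where none was counted (0 higher, 0 lower), the count higher was 1 with the median scaling, quantile normalization and the trend removed, and 2 at 1.5-fold, and the stricter filter left 21 members.

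For the collagen pathway lists against siNeg, the count higher was 1 with normexp, 2 with the stricter filter and 11 at 1.5-fold, and the count lower was 0 with normexp and spike-in scaling, 5 with no filter, 2 with the brightest probe and 3 at 1.5-fold. Against mock, the count higher was 1 with normexp, 2 with the stricter filter and 14 at 1.5-fold, and the count lower was 0 with normexp, 1 with spike-in scaling, quantile normalization, the trend removed and the stricter filter, and 5 at 1.5-fold. In siNeg minus mock, the count higher was 1 with the median scaling, 2 with no filter and 1 at 1.5-fold, and the count lower was 1 with no filter. Col6a3 against siNeg turned to 0.06 with no filter on dim probes, which adds its dim probes to the mean. The stricter filter tests fewer genes. Normexp was run with an offset of 50, which by construction draws the log2 differences of dim signals toward 0. How much of the lower counts with normexp comes from that offset was not tested, nor was the cause of the other shifts. The value table and the RefSeq names moved none of these counts past 1.5 times.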
